A study of Homo sapiens with 2 samples.

Results

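The immediate early and MAPK feedback genes described here were FOS, FOSL1, JUN, JUNB, EGR1, EGR3, IER2, DUSP5, DUSP6 and MYC. Every probe set that the platform annotation assigned to 1 of these symbols was taken, without regard to its signal. This gave 17 probe sets for the 10 genes, of 41091 probe sets with 1 listed gene and 54675 on the array. JUN had 4 of them, EGR1 and DUSP6 had 3 each, and the other 7 genes had 1 each.

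The cells were CL1-0, an established human lung adenocarcinoma line that the labels call a type II alveolar cell. Cells with a control vector were compared with cells that had received an FDFT1 vector, FDFT1 being the gene of squalene synthase, and each group was 1 sample on 1 Affymetrix array. All cells of both groups had been kept under puromycin for 2 weeks and grown at 37 °C in 5% CO2. The labels name stably transduced cells and neither a clone, a promoter nor a stimulus, and because FDFT1 was not analysed here, the label of the FDFT1 array is unverified by its own transcript in every difference below. Of 10 type II markers with a probe set 7 were measured. ETV5 (383 with the control vector, 281 with FDFT1), LPCAT1 (934 and 787), ABCA3 (79.9 and 55.6) and LAMP3 (53.0 and 58.8) lay above the floor used here. SFTPB (31.97 and 35.25), NKX2-1 (31.1 and 29.3) and SFTPC (29.3 and 16.9) were closer to it, and SFTPD, NAPSA and SLC34A2 lay below it on both arrays. Of 6 epithelial markers 4 were measured, EPCAM, KRT7, KRT8 and KRT18, the highest signal being 20.1 (KRT18, control vector). CDH1 and KRT19 lay below the floor on both arrays. Of 6 blood and immune markers 4 were measured. The brightest, CD79A (50.5 and 40.6), lay above SFTPB, NKX2-1 and SFTPC. The type II markers were thus present in part, the epithelial markers were near or below the floor, and the type II label was not settled by them.

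Immediate early genes are transcribed within minutes of a growth factor or stress signal and need no new protein synthesis. Signals from receptors pass through RAS, RAF, MEK and ERK kinases to serum response factor and its ETS partners, which switch on FOS, EGR1 and IER2. Their products in turn drive slower genes, while phosphatases of the DUSP family, themselves made in response to ERK activity, remove the activating phosphates from ERK. Many of these transcripts decay quickly and can also respond to the handling of cells. The time between medium change and lysis is not given in the sources used here, so its part in the values below was not tested.

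The upstream windows of FOS, JUN and EGR1 are shown because they hold matches to elements known from signal-responsive promoters, and because EGR1 and JUN had the highest and the lowest difference among members with a sequence. Sequences were those of RefSeq on GRCh38.p14, which matched 6 of the 10 members: FOS, JUN, JUNB, EGR1, IER2 and DUSP6. FOSL1, EGR3, DUSP5 and MYC were not matched. Each run is the 250 bases before the annotated start, written 5′ to 3′ in the direction of transcription. Capitals mark matches, on either strand, to the CArG box bound by serum response factor, to the CRE core TGACGT bound by CREB and ATF factors, to the AP-1-like site TGACATCA, to the EGR site GCGNGGGCG or to the TATA box TATAAA.
FOS promoter, chr14:75278578-75278827, plus strand: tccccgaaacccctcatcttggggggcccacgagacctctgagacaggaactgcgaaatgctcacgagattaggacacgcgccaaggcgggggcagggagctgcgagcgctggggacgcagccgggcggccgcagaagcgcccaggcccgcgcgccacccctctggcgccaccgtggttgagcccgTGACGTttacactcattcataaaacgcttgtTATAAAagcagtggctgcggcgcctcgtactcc
JUN promoter, chr1:58784048-58784297, minus strand: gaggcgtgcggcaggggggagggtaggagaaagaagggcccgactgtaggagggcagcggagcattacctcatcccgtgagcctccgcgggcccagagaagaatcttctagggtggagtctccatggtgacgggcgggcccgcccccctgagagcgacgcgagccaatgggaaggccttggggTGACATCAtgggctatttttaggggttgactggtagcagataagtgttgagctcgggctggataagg
EGR1 promoter, chr5:138465229-138465478, plus strand: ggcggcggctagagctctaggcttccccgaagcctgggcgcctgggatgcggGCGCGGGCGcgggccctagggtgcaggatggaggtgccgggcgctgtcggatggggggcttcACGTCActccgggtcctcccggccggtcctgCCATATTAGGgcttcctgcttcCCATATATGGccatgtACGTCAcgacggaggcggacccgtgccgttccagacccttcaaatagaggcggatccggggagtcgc
The EGR1 window held 2 CArG boxes, CCATATTAGG at 105 to 96 bases and CCATATATGG at 83 to 74 bases before the start. It also held 2 CRE cores and 1 EGR site. The FOS window held 1 CRE core and a TATA box and no CArG box, and the JUN window held no CArG box either but the AP-1-like site at 67 to 60 bases before the start. A CArG box was found in 1.16% of the 35116 promoter windows of the same length, and at least 2 of them in 0.0313%. The CRE core was in 7.1% of all windows, TGACATCA in 2.37%, the EGR site in 8.41% and TATAAA in 10.7%. The AP-1 site TGACTCA (4.2% of windows) and the E-box CACGTG (6.34%), both also searched on both strands, were in none of the 6 member windows. No searched motif was found in the IER2 or DUSP6 window, and JUNB had a TATA box. A match describes the letters of the window only, and the arrays did not measure binding. Bases further upstream were not searched, so the lack of a CArG box in the FOS or JUN window does not mean that the gene has none.

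Signals are MAS5 intensities as deposited, in arbitrary units, with the control array named first in every pair. Log2 differences (FDFT1 minus control) were centred, because the FDFT1 array was lower as a whole, with a median difference of -0.11. Signals under 12.2, the median of all signals, were set to that floor after centring, and a probe set was called measured if at least 1 array reached it. As there were no replicates, no p-value could be given. The only error available is the probe-level error, taken from pairs of probe sets of the same gene. This error was 0.49 on the log2 scale where the mean log2 signal was under 5. It fell with signal, to 0.30 between 5 and 7, 0.22 between 7 and 9, 0.16 between 9 and 11, and 0.097 at 11 and above. It leaves out all variation between cultures.

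None of the 10 genes differed by 2-fold between the 2 arrays. In such bulk RNA, fewer expressing cells and less RNA per cell cannot be told apart. Of the 17 probe sets, 15 were measured. Of these, 0 were at least 2-fold different, against 1.49% of the 24634 measured probe sets with 1 listed gene, and 0 reached 1.5-fold, against 9.24%. Of the members' probe sets 8 lay above 0 and 7 below, where 49.9% and 50.1% of all measured probe sets lay. The median of the 15 was 0.05 and their range -0.49 to 0.47, beside a median of -0.00048 over all measured probe sets. Without centring the split was 6 above and 9 below, and DUSP5, at -0.59, was just past 1.5-fold.

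**Figure D1:**
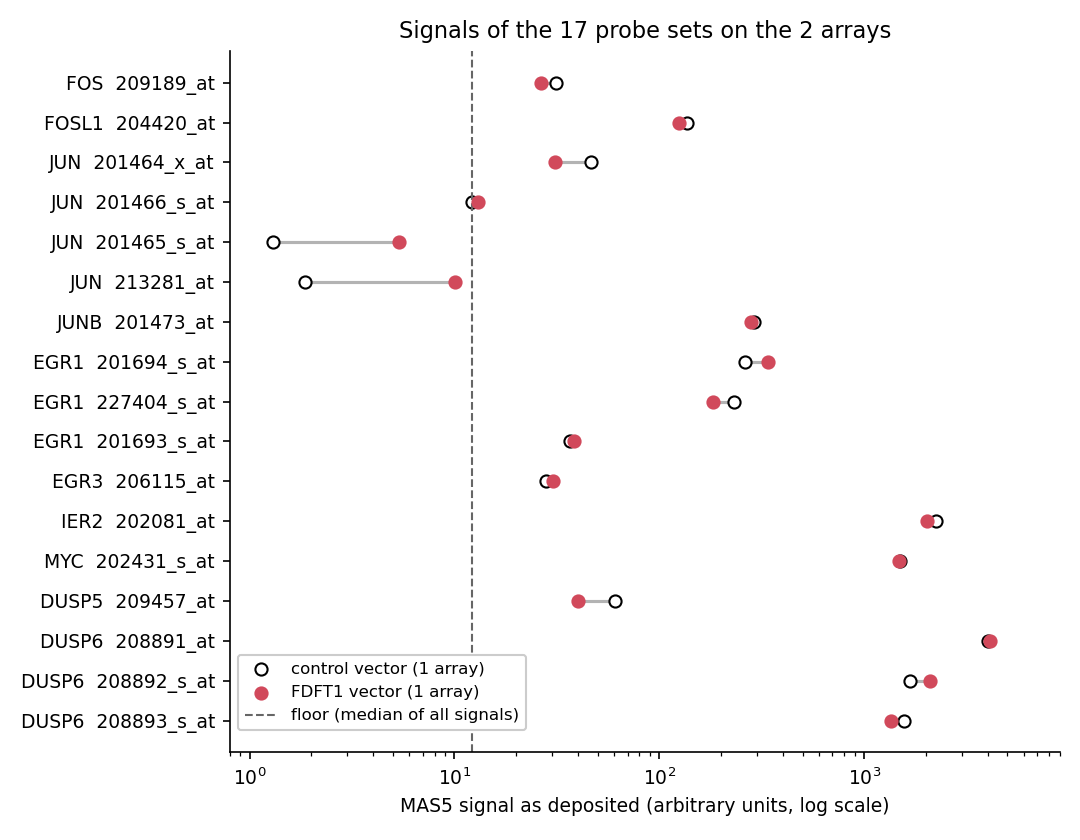
Deposited MAS5 signal (arbitrary units, log axis) of each of the 17 probe sets on the control array (open) and the FDFT1 array (filled), with 1 array per group and no error bars; the dashed line is the floor at 12.2. The points of most probe sets nearly coincide, and the widest gaps belong to the JUN probe sets 201465_s_at and 213281_at, which lie left of the floor on both arrays.

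FOS, JUN and their relatives pair through leucine zippers to form AP-1, a dimer that binds DNA at AP-1 sites. The single FOS probe set was dim, with signals of 31.5 (control) and 26.6 (FDFT1). Its difference of -0.14 was smaller than its error of 0.49. FOSL1, also called FRA1, is a FOS relative whose protein is stabilised by ERK. Its probe set had signals of 136 and 125, a difference of -0.02 with an error of 0.22. FOSL1 was at 0.00083 after quantile normalization, so its direction depended on the scaling.

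JUN encodes the main partner of FOS, and its 4 probe sets did not tell the same story. Only 201464_x_at was clearly above the floor, at 46.2 (control) and 30.9 (FDFT1). This is 1.39-fold lower after centring, a difference of -0.48 with an error of 0.30. The _x_at ending marks a probe set whose probes can match other transcripts as well. The probe set 201466_s_at lay at the floor (12.2 to 13.0), with a difference of at least 0.15 on the centred scale. Signals of 1.31 and 5.39 for 201465_s_at and of 1.86 and 10.1 for 213281_at were all below the floor. For these last 2 probe sets the FDFT1 array had the higher signal, but no fold can be given between values below the floor. Without a floor, 24.9% of the 41091 probe sets with 1 listed gene would be at least 2-fold different, and these 2 would be among them. JUN was therefore lower on its 1 measured probe set with a clear signal, and not lower on any of the others.

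JUNB, a JUN relative that activates less strongly in most settings, had signals of 291 and 280. Its centred difference was 0.05 with an error of 0.22. As deposited it lay at -0.06, so its sign came from the centring. Over the AP-1 genes 5 probe sets were measured, 2 above 0 and 3 below, with a median of -0.02, and 4 of the 5 lay within 0.15 of 0.

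EGR1 and EGR3 are zinc finger transcription factors, and EGR1 is among the most direct readouts of ERK acting on serum response factor. The brightest EGR1 probe set, 201694_s_at, had signals of 263 (control) and 339 (FDFT1). At 0.47 it was the highest value of all member probe sets, 1.39-fold, or 2.2 times its error of 0.22. The second, 227404_s_at, ran the other way, from 232 to 182, a difference of -0.24 with the same error. The third, 201693_s_at, had signals of 36.7 and 38.5, a difference of 0.17 with an error of 0.30. The highest and lowest EGR1 probe sets thus lay 0.72 apart, with an error of 0.30 for that gap. That error is for a pair fixed beforehand, so it is too small for the extremes of 3 probe sets. Across the 1739 genes with 3 measured probe sets, at any signal, the median of this gap was 0.45. The mean of the 3 EGR1 probe sets was 0.13, so the value of EGR1 depended on which probe set was read. All 3 have the _s_at ending, which marks probes shared between transcripts.

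EGR3, a relative of EGR1 that is induced by many of the same signals, had signals of 27.9 and 30.3. Its difference of 0.23 was smaller than its error of 0.49. The 4 EGR probe sets had a median of 0.20, with 3 above 0 and 1 below.

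IER2 encodes a small nuclear protein induced early after serum. It was well above the floor on both arrays, at 2240 and 2026, a difference of -0.04 with an error of 0.097. The difference as deposited was -0.15. MYC, the growth-promoting transcription factor that follows mitogen signals, had signals of 1488 and 1479 on its 1 probe set. Its centred difference was 0.10 with an error of 0.16, and as deposited it was -0.0085, so its sign too came from the centring. These 2 genes had among the narrowest errors of the group, and neither differed by 1 error of its probe set after centring.

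**Figure D2:**
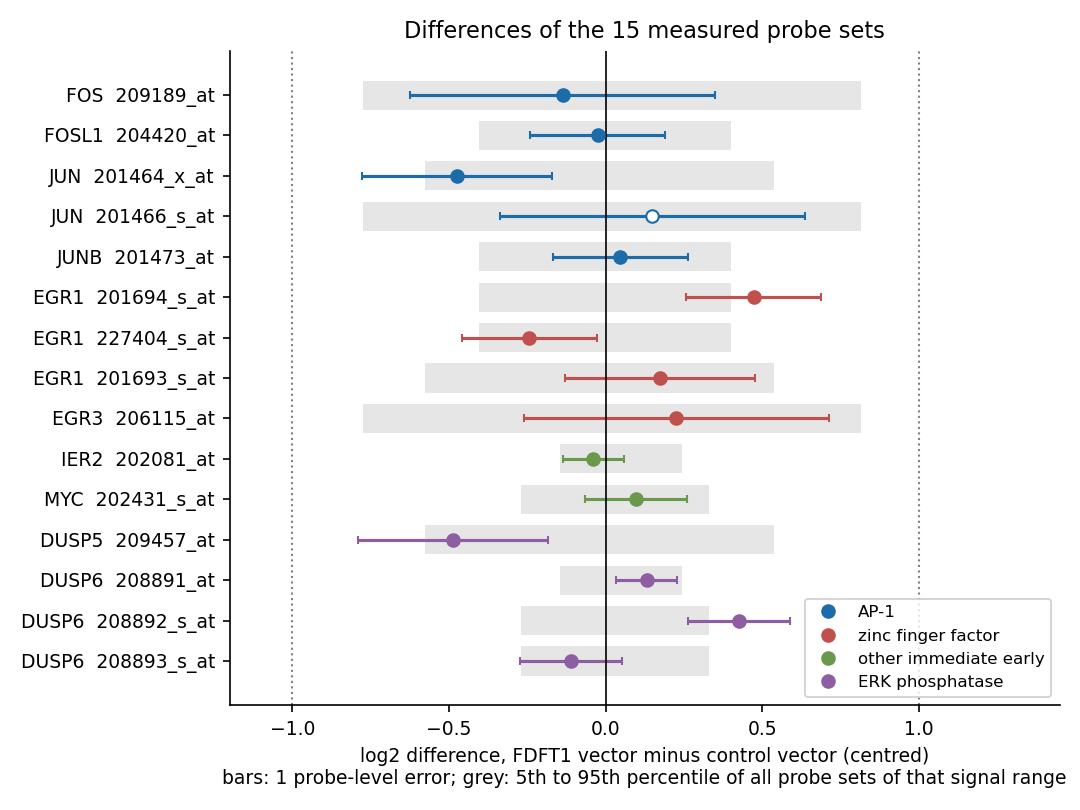
Centred log2 difference (FDFT1 minus control) of the 15 measured probe sets, coloured by role, with bars of 1 probe-level error and the 5th to 95th percentile of all measured probe sets of the same signal range in grey; dotted lines mark 2-fold, and the open point is a lower bound. Only EGR1 201694_s_at (0.47) and DUSP6 208892_s_at (0.42) lie outside their grey band, and another probe set of each gene lies on the other side of 0.

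DUSP5 and DUSP6 are the ERK phosphatases of the set: DUSP5 acts in the nucleus and DUSP6 in the cytoplasm, and transcripts of both are used as readouts of ERK activity. DUSP5 was lower on the FDFT1 array, from 60.6 to 40.2, on its 1 probe set. The difference of -0.49, or 1.40-fold, was the lowest of all members and 1.6 times its error of 0.30. It stayed between -0.59 and -0.48 over the 4 scalings tried. The grey band of its signal range ran from -0.58 to 0.54, so DUSP5 lay within the central 90% of such probe sets.

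DUSP6 was far above the floor on all 3 of its probe sets. The brightest, 208891_at, had signals of 4019 and 4089, a difference of 0.13 with an error of 0.097. The probe set 208892_s_at had signals of 1675 and 2089, a difference of 0.42, or 2.61 times its error of 0.16. The probe set 208893_s_at had signals of 1570 and 1351, a difference of -0.11. The first 2 were designed from the same source transcript and the third from another, according to the annotation. The gap between the highest and lowest DUSP6 probe set was 0.54, or 2.33 times its error of 0.23, again that of a pair fixed beforehand. This gap was again wider than the median of 0.45 over genes with 3 measured probe sets, which were not matched for signal. The mean of the 3 was 0.15. DUSP5 and DUSP6 thus lay on opposite sides of 0 by their brightest probe sets, and no test of that contrast can be made with 1 array per group.

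Of the 15 measured probe sets, 2 lay more than 2 probe-level errors from 0, EGR1 201694_s_at and DUSP6 208892_s_at, against 7.21% of all measured probe sets. Both were singled out after their values were seen, and each belongs to a gene with another probe set below 0. Neither EGR1, DUSP6 nor JUN, the members with several measured probe sets, had all of them on the same side of 0.

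**Figure D3:**
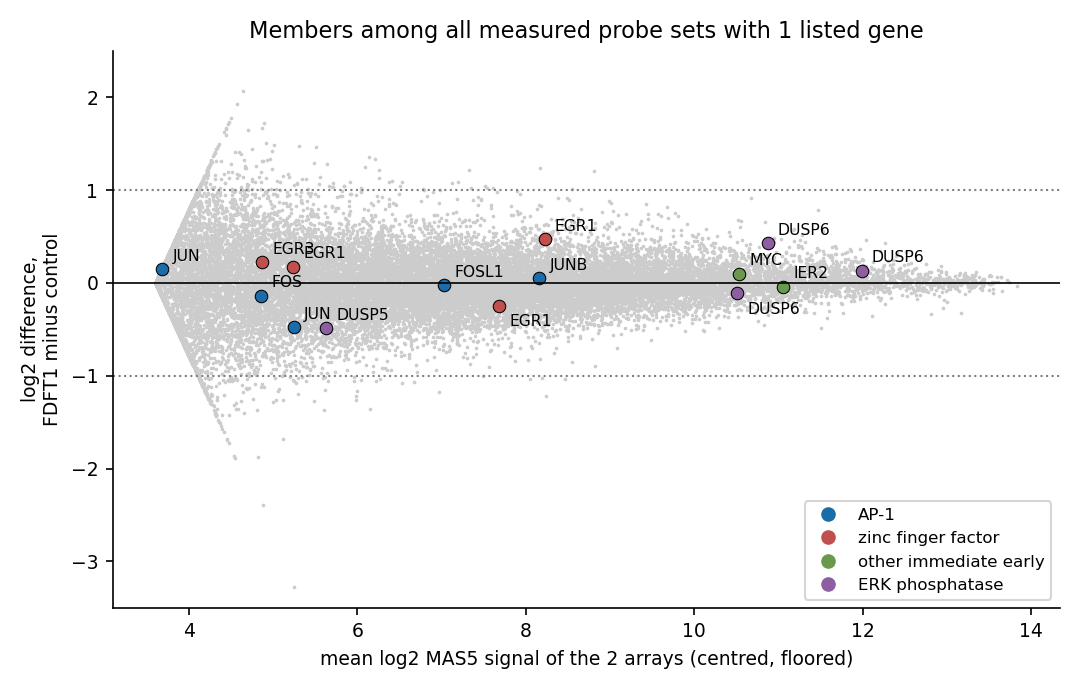
Centred log2 difference (vertical, FDFT1 minus control) against mean log2 signal of the 2 arrays (horizontal) for the 24634 measured probe sets with 1 listed gene (grey) and the 15 member probe sets (coloured by role); dotted lines mark 2-fold. The members lie inside the grey cloud over the whole signal range, and the cloud narrows from an SD of 0.48 under a mean log2 signal of 5 to 0.13 from 11 upward.

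The scaling of the arrays did not move the members far. Against centring, the deposited values were all lower, while quantile and loess values were higher for some probe sets and lower for others. Under centring, the deposited values, quantile normalization and loess, 12 of the 15 probe sets kept their sign, 6 above 0 and 6 below. The exceptions were FOSL1, JUNB and MYC, whose values lay between -0.13 and 0.10 throughout. EGR1 201694_s_at ranged from 0.37 to 0.49, DUSP6 208892_s_at from 0.32 to 0.42 and JUN 201464_x_at from -0.58 to -0.48.

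**Figure D4:**
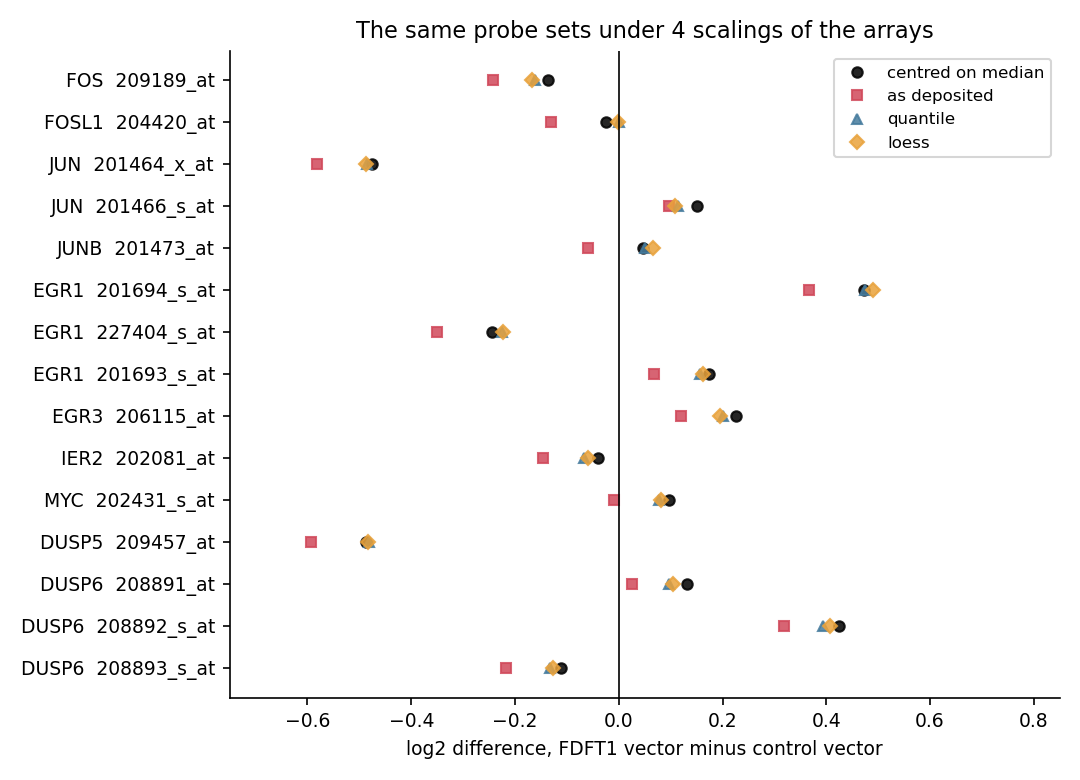
Log2 difference (FDFT1 minus control) of the 15 measured probe sets under 4 scalings of the arrays, with 1 point per scaling. The deposited values lie left of the centred ones throughout, by 0.11 where both signals are above the floor, and only FOSL1, JUNB and MYC cross 0.

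The rest of the pathway was read from 9 lists chosen by role, with the brightest measured probe set standing for each gene. They held 107 measured genes, 56 above 0 and 51 below, with a median of 0.02 beside -0.0013 over all 12968 measured genes. Of all measured genes 49.8% lay above 0 and 1.15% were at least 2-fold different. Among the 107, BATF3 was the only gene past 2-fold after centring, while with the floor but no centring MYCL also was (25.6 to 12.8). The values below carry the same errors by signal range, and no list median can be read against a replicate error.

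Further AP-1 subunits and dimer partners had a median of -0.05 (10 genes, 4 above 0, 6 below). BATF3, a zipper protein that pairs with JUN proteins, was 2.04-fold lower, with signals of 525 and 239 on its 1 probe set. The FOS relative FOSL2 was at 0.50 (85.3 to 112, 3 of 4 probe sets above 0) and ATF2, a CRE-binding factor that can pair with JUN, at 0.54 (556 to 752, 2 of 2 probe sets). ATF7 was at 0.22 (1 of 3 probe sets above 0), MAFG at -0.33 (0 of 2) and JDP2 at -0.29 (1 of 2). FOSB lay below the floor on both arrays.

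Other immediate early genes had a median of 0.09 (21 genes, 13 above 0, 8 below), which was -0.02 without centring. TRIB1, a pseudokinase, was at 0.48, the kinase gene SGK1 at 0.43 and the nuclear receptor gene NR4A2 at 0.35 with 3 of 3 probe sets above 0. NR4A1 was at -0.43 with 1 of 3 probe sets above 0, and ZFP36, whose protein speeds the decay of immediate early transcripts, at -0.43 (262 to 181). KLF6 was at -0.18 by its brightest probe set, but 3 of its 5 probe sets lay above 0.

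MAPK feedback inhibitors beside DUSP5 and DUSP6 had a median of 0.05 (16 genes, 9 above 0, 7 below), or -0.06 without centring. DUSP2 was at 0.40, SPRED1 at 0.29 with 3 of 3 probe sets above 0, and ERRFI1, an EGFR inhibitor, at 0.17. DUSP9 was at -0.54 (63.9 to 41.0), SPRED3 at -0.45 and SPRY4, a Sprouty inhibitor induced by ERK, at -0.40 (865 to 610, error 0.16). ERK output genes, which share SPRY2, SPRY4 and DUSP4 with that list, had a median of -0.01 (8 genes, 4 above 0, 4 below). PHLDA1 was at 0.64 on a dim probe set (22.9 to 33.2, 2 of 4 above 0), CCND1, the cyclin D1 gene, at 0.36 and EPHA2 at 0.10. ETV5, an ETS factor induced by ERK, was at -0.34 (383 to 281) with 0 of 4 probe sets above 0. DUSP4 was at -0.24 by its brightest probe set, but 2 of its 3 probe sets lay above 0.

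The receptor to ERK cascade had a median of -0.06 (17 genes, 8 above 0, 9 below). The adaptor and exchange factor genes GRB2 (0.22, 2 of 3 probe sets above 0) and SOS1 (0.23, 2 of 4) and the phosphatase gene PTPN11 (0.24, 3 of 4) were highest. MAP2K2, one of the MEK kinases, was at -0.37 (756 to 544, 0 of 2 probe sets above 0), ERBB3 at -0.37 (2 of 4) and EGFR at -0.36 (1 of 4). The p38 and JNK kinases had a median of -0.02 (9 genes), from MAP2K6 at -0.47, MAPK12 at -0.13 and MAPK11 at -0.07 to MAPK9 at 0.12, MAPKAPK2 at 0.33 and MAPK13 at 0.30 or more, its control signal being below the floor. The factors acting on immediate early promoters had a median of 0.11 (9 genes, 5 above 0), or 0.0013 without centring. ELK3, an ETS partner of serum response factor, was at 0.68 (282 to 420, error 0.22) on its 1 probe set, NAB1 at 0.31 and CREB1 at 0.24 with 2 of 7 probe sets above 0. NAB2, a corepressor of EGR1, was at -0.37 (435 to 313, 1 of 2 probe sets above 0), MRTFA at -0.10 (3 of 5) and ELK1 at -0.08 (0 of 2). SRF itself, the factor that binds CArG boxes, was at -0.0095 (148 to 137).

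MYC partners and antagonists had a median of -0.04 (10 genes, 4 above 0, 6 below). MAX, the obligate partner of MYC, was at -0.15 (1301 to 1092, error 0.16) with 0 of 5 probe sets above 0. MGA was at -0.14 (1 of 3 probe sets above 0), and MYCL at -0.90 on a dim probe set (25.6 to 12.8) while its other probe set lay above 0. MXD1, an antagonist of MYC, was at 0.38 with 2 of 2 probe sets above 0, FBXW7, which targets MYC protein for degradation, at 0.25, and MYCN at 0.28 or more, its control signal being below the floor. MYC target genes had a median of 0.06 (10 genes, 6 above 0, 4 below), or -0.045 without centring. RRP12, a ribosome assembly factor, was at -0.89 (640 to 320, error 0.22) with 0 of 3 probe sets above 0. CAD, the enzyme of the first steps of pyrimidine synthesis, was at -0.51 (755 to 493, error 0.16), while its other probe set was at -0.008. TERT was at -0.36 with 0 of 2 probe sets above 0. The nucleolar gene NCL was at 0.16, ENO1 at 0.10 and FBL at 0.07. Without _x_at and _s_at probe sets the median of the MYC targets was -0.31, over ODC1, CAD, RRP12 and TERT only. NCL, FBL, CDK4, LDHA, NPM1 and ENO1 then had no value.

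**Figure D5:**
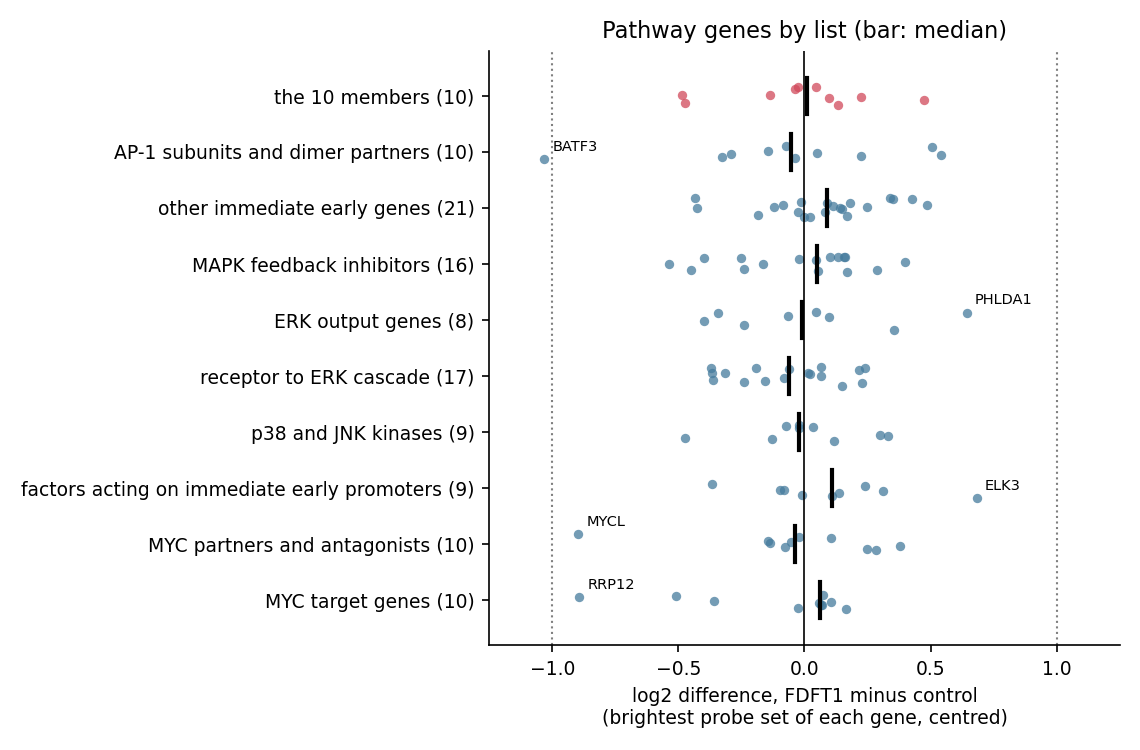
Centred log2 difference (FDFT1 minus control) of the brightest measured probe set of each gene, for the 10 members (red) and the 9 other pathway lists (blue), with the number of measured genes in parentheses, black bars at the medians and dotted lines at 2-fold. All list medians lie between -0.06 and 0.11, and BATF3 (-1.03) is the only gene beyond 2-fold on this centred scale.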

How the data were processed

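RNA of 2 CL1-0 samples, 1 per group, was measured on 1 Affymetrix array each; the titles of the samples gave the groups. The authors deposited linear MAS5 signal intensities, per the submitters' processing notes, 1 value per probe set. No source used here gives the software version, the scaling target or detection calls. With 1 array per group the number of arrays limits the precision, and no test was made.

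The 62 control probe sets were set aside. The platform annotation listed 1 gene for 41091 of the others, several for 1801 and none for 11721, and probe sets with 1 gene were used. The arrays were centred on the median log2 difference (-0.11) over probe sets at or above the floor on both, each moved by 0.05, and then floored at 12.2. For the probe-level error, the differences of a gene's 2 brightest measured probe sets were subtracted, where both lay in the same signal range, and the SD over genes was divided by the square root of 2. The steps were tested on simulated data, with changes planted only at a mean log2 signal above 7 and larger than any member difference. That test does not cover differences of the size reported here. Promoter sequences came from RefSeq (GRCh38.p14). Alternatives were the deposited scale, quantile and loess scaling, no floor, a floor at the 75th percentile (99.4), no _x_at or _s_at probe sets, probe-set means per gene, and thresholds of 1.5-fold and 3-fold.

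All members were named, with every probe set. Of each other list, up to 3 measured genes above 0 and up to 3 below with the largest differences were named, and any past 2-fold. SRF, SPRY2, the type II and epithelial markers, CD79A, FOSB and the remaining MYC targets were named beyond that rule. The members and lists were chosen with earlier results of these data known. With 2 samples no likeness of pattern between genes can be measured. Python 3.11.15, numpy 2.4.6, pandas 2.3.3 and statsmodels 0.14.6 were used.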

Additional observations from a re-analysis of the deposited data

How the results depend on the processing

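The count of member probe sets at least 2-fold different was 0 under each alternative except no floor, where it was 2. Those 2 are the JUN probe sets whose signals are below the floor on both arrays, and without a floor 24.9% of all probe sets with 1 listed gene passed 2-fold. With the floor at the 75th percentile fewer probe sets were measured by construction: 9, of which 5 were above 0 and 4 below. Without _x_at and _s_at probe sets 7 were left, 3 above 0 and 4 below, and EGR1, JUN and MYC had no value. The median of the MYC targets was -0.045 on the deposited scale and -0.31 without _x_at and _s_at probe sets. The latter covers only ODC1, CAD, RRP12 and TERT. NCL, FBL, CDK4 and LDHA, each with 1 measured probe set, an _s_at, then had no value, and neither had NPM1 or ENO1. In that setting 1 MYC target was above 0, against 6 of 10 in the main setting, so the 2 medians are not over the same genes. The median of the member probe sets lay between -0.06 (deposited scale) and 0.10 (no floor), so its sign is not settled. With the mean of all measured probe sets, EGR1 was at 0.13 and JUN at -0.16. No paired analysis was possible because each group holds 1 sample. Signals near the floor limit what can be read for FOS, EGR3 and JUN.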
